A study of Rattus norvegicus with 4 samples.

Results

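The genes described here are those of rat whose NCBI symbol is an Adam, Adamts, Adamtsl or Mmp number or Timp1 to Timp4. These are the metalloproteinases of the cell surface and the matrix, the related ADAMTS-like proteins and the tissue inhibitors. The RefSeq table of the GRCr8 assembly holds 80 such genes, and 32 of them carried at least 1 peak in the m6A-seq lists of the study, out of 8729 genes with a peak. That is 40% of the 80, where 35.5% of the protein-coding genes of RefSeq had a peak. Vector peaks were listed for 28 of the 32, FTO peaks for 26 and peaks of both groups for 22, where 74% of all genes with a peak had them in both.

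m6A-seq was performed on primary cardiac fibroblasts (CFs) taken from the hearts of newborn Sprague-Dawley rats, collected no later than 3 days after birth. The Vector group received the empty plasmid, and its genotype is labelled WT. The FTO group received a plasmid for overexpression of FTO, an enzyme that removes m6A from RNA, for 48 h. Each group has 1 m6A-IP and 1 input library, 4 libraries in all, and the labels name 1 peak list for each group. Transfection reaches a culture as a whole, and how many cells took up the plasmid is not given in the sources used here.

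m6A is a methyl mark on adenosines of RNA. An antibody enriches the fragments that carry it, and peaks are called where reads of the enriched library outnumber those of the input. ADAM proteins sit in the cell membrane and many of them cut off the outer part of other membrane proteins, a step called shedding. ADAMTS enzymes are secreted and cut proteoglycans or trim procollagens, ADAMTS-like proteins share their ancillary domains but have no protease domain, MMPs cut most matrix proteins, and TIMPs block MMPs and some of the ADAM and ADAMTS enzymes. In the heart these proteins take part in the turnover of the matrix that fibroblasts lay down.

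The lists give a length in bp for each peak, with its transcript and gene. They give no position, height or enrichment, and the sequencing depth is unknown. The Vector list held 21249 peaks with a median length of 203 bp, and the FTO list held 17796 with a median of 228 bp. As 1 library pair stands for each group, none of the differences below has a replicate check, and no test was made between the groups. The peak names carry numbers, which rose along the chromosomes (Spearman rho between peak number and place of the gene on the GRCr8 chromosome, over 21 chromosomes, median 0.987 and lowest 0.865 for Vector peaks), so the number was taken as the order of the peaks within a gene. The transfected gene, Fto, had 3 peaks of 120 to 144 bp in the Vector list and 9 peaks of 60 to 2021 bp in the FTO list. Plasmid and endogenous Fto RNA cannot be told apart in these lists. Of 11 fibroblast marker genes, 7 had a peak, with 15 Vector peaks and 12 FTO peaks in all, while Col1a1, Col1a2, Col3a1 and Dcn had none. Of 8 cardiomyocyte genes, 5 had a peak, with 22 Vector peaks and 24 FTO peaks. Of the others, 3 of 4 smooth muscle and pericyte genes had a peak (22 and 22 peaks). The same held for 4 of 4 macrophage and leukocyte genes (13 and 10) and 1 of 6 endothelial genes (0 and 2). Peak numbers are not transcript levels, and the part of other cell types in the results was not tested. In such a bulk culture, fewer cells of a type and less RNA per cell cannot be told apart.

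The 80 genes carried 79 Vector peaks and 69 FTO peaks. Fewer FTO peaks than Vector peaks were listed for 13 of the 32 genes with a peak, as many for 5 and more for 14. Over all 8729 genes, 41.4% had fewer FTO peaks, 37.4% as many and 21.2% more. The share with more was thus 43.8% for the metalloproteinase and inhibitor genes (95% Wilson interval 28.2% to 60.7%), and the share with fewer was 40.6% (25.5% to 57.7%). These intervals cover counting error over genes only. Of the 32 genes, 6 had Vector peaks alone (16.4% of all genes with a peak) and 4 had FTO peaks alone (9.57% of all genes with a peak). The FTO list is the shorter one, and multiplying its numbers by 1.194, the ratio of the list sizes, turned the difference of the whole set from -10 to 3.39 peaks.

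**Figure D1:**
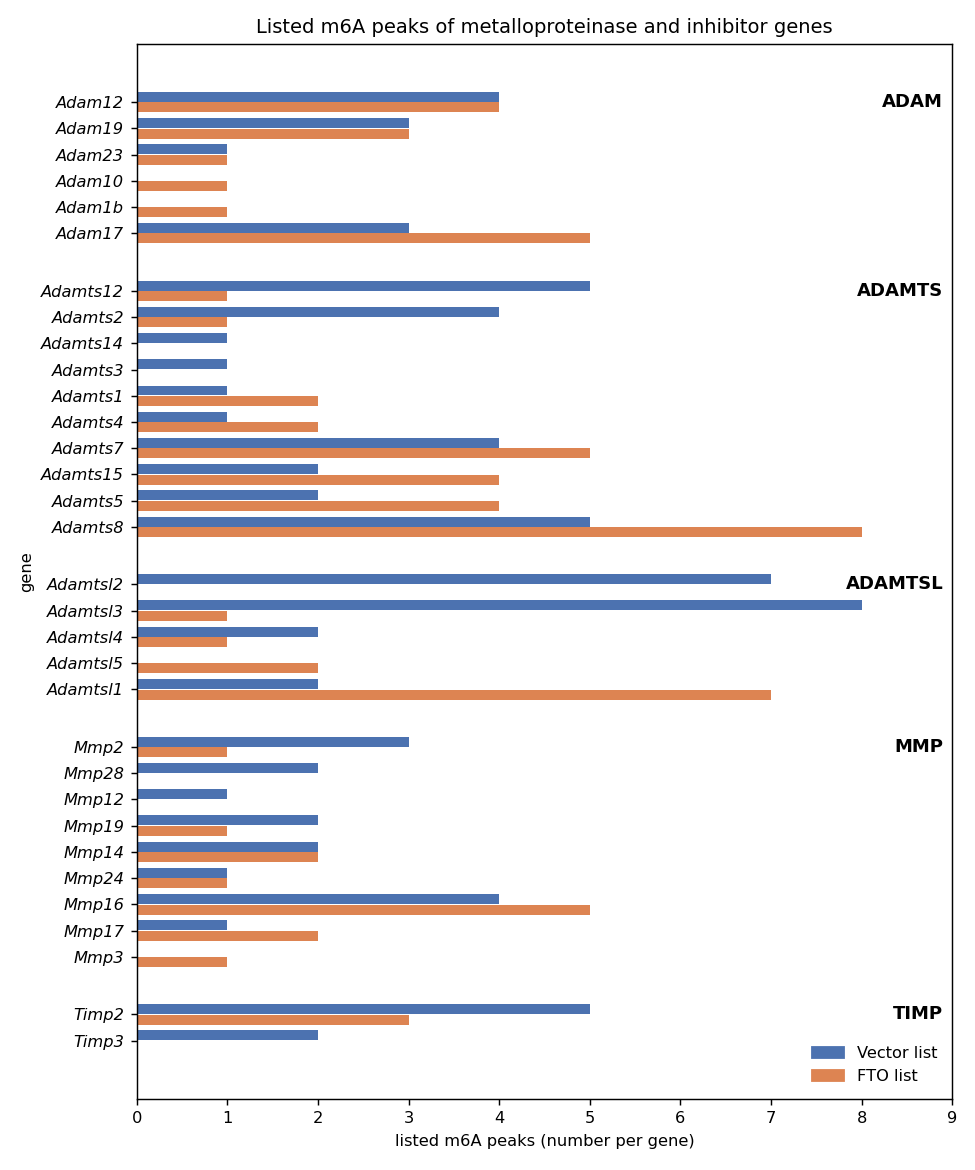
Number of listed m6A peaks per gene (horizontal axis, peaks) for the 32 genes with a peak, by subfamily, with a blue bar for the Vector list and an orange bar for the FTO list. Each bar is 1 list with no replicate. The longest gaps are those of Adamtsl2 (7 and 0), Adamtsl3 (8 and 1) and Adamtsl1 (2 and 7).

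The numbers differed by 2 or more for 14 of the 32 genes, where 19.5% of all genes with a peak did so. They differed by 5 or more for 3 genes, all of them ADAMTS-like genes, where 1.47% of all genes did so. The near even split of the whole set thus held wide differences in both directions, which are given here by subfamily and known activity.

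**Figure D2:**
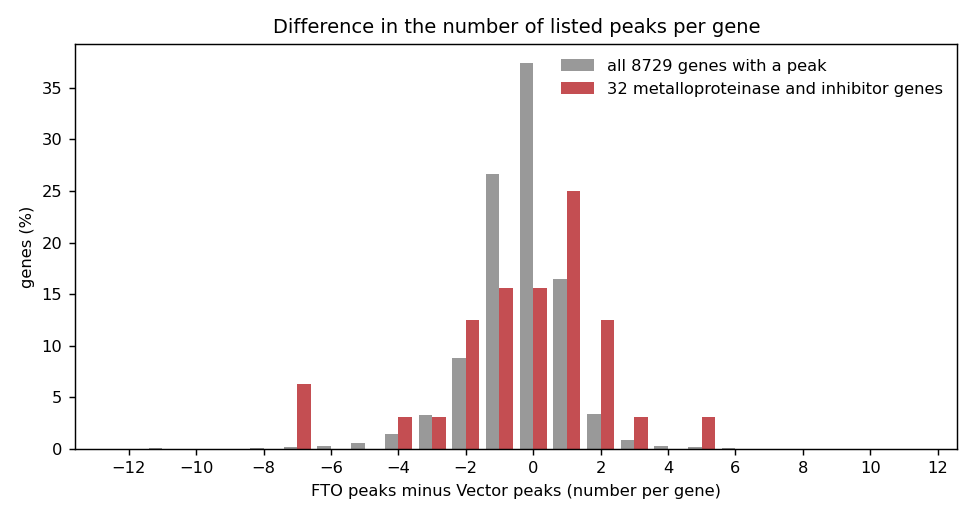
Difference in the number of listed peaks (FTO minus Vector, horizontal axis) against the percentage of genes (vertical axis), for all 8729 genes with a peak (grey) and for the 32 metalloproteinase and inhibitor genes (red). The grey bars peak at 0 with 37.4% of genes, while 25.0% of the red genes stand at 1 and 15.6% at 0.

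A Vector peak and an FTO peak of equal length on 1 gene were paired 1 to 1. The positions are not given, so an equal length and order stand here for the same peak. In this way 31 peaks of the 80 genes were common to both lists, and all 31 pairs stood in the same order of peak numbers within their gene in both lists (12158 of 12166 pairs over all genes). A gene with a single pair cannot be out of order, so only genes with more pairs could fail here. Without a partner were 48 of the 79 Vector peaks, which is 60.8% (95% Wilson interval 49.7% to 70.8%), beside 42.7% of all Vector peaks. Of the 69 FTO peaks, 38 had none, which is 55.1% (43.4% to 66.2%), beside 31.6% of all FTO peaks. These intervals treat the peaks of a gene as independent and are too narrow where they go together. Adamtsl2 and Adamtsl3, for instance, each had 7 of the Vector peaks without a partner. Whether the shares differ from those of all peaks was not tested. When lengths within 10% were accepted, 35 peaks were common, a number not taken over all genes. Over all 79 Vector and 69 FTO peaks of these genes, the median length was 212 and 225 bp, and 14 Vector peaks and 15 FTO peaks were 1000 bp or longer. Such long peaks made up 17.7% of the Vector peaks of these genes (14.2% of all Vector peaks) and 21.7% of their FTO peaks (16.7% of all FTO peaks). Peaks under 100 bp made up 8.86% of the Vector peaks (12.8% of all) and 7.25% of the FTO peaks (10.8% of all).

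The subfamilies differed in the length of their peaks. ADAMTS genes had the longest Vector peaks, with a median of 390 bp and an FTO median of 295 bp, and 9 peaks of 1000 bp or longer in each list, which is 34.6% and 33.3% of their peaks. ADAM genes had the shortest Vector peaks but for TIMP, with a median of 136 bp and an FTO median of 178 bp. The medians were 205 and 148 bp for ADAMTSL, 258.5 and 308 bp for MMP, and 125 and 257 bp for TIMP. The Vector peaks without a partner made up 78.9% for ADAMTSL, 61.5% for ADAMTS, 57.1% for TIMP, 56.2% for MMP and 36.4% for ADAM. Among the FTO peaks the shares were 63.6% for ADAMTSL, 63.0% for ADAMTS, 53.3% for ADAM, 46.2% for MMP and 0% for TIMP. Each of these shares rests on 3 to 27 peaks, and the order of the subfamilies was not tested.

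The ADAMTS proteases held 26 Vector peaks and 27 FTO peaks on 10 of their 19 genes, a near equal total. From 200 bp upwards the totals were 17 and 15, so the direction of this small difference turned. Of the 7 genes known as proteoglycanases, which cut aggrecan and versican, 5 had a peak, and all 5 had more in the FTO list, with 11 Vector peaks and 20 FTO peaks. All 3 genes of the procollagen N-proteinases, which remove the amino-terminal propeptide of fibrillar procollagens, had fewer, with 6 Vector peaks and 1 FTO peak. The background, again, was 21.2% of all genes with more peaks and 41.4% with fewer. The groups were drawn up by textbook activity with earlier results of these lists known, so their counts are a description only.

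Adamts8 (NCBI gene 300475), a proteoglycanase, had the most FTO peaks of all 80 genes. In the order of the peak numbers its 5 Vector peaks measured 440, 240, 305, 184 and 1173 bp. Its 8 FTO peaks measured 440, 240, 136, 168, 305, 184, 176 and 1201 bp. In all, 4 peaks thus kept their length and order, the long last peak differed by 28 bp, and the FTO list held 3 more short peaks between them. A difference of at least 3 in this direction was seen for 1.39% of all genes.

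Adamts15 (gene 300474) lies next to Adamts8, and no listed peak of another gene stood between their peaks in either list. It had 2 Vector peaks of 1742 and 1250 bp and 4 FTO peaks of 2478, 182, 178 and 1278 bp. None of these lengths was shared between the lists, and the first and the last peak were both longer in the FTO list. The neighbouring pair together carried 7 Vector peaks and 12 FTO peaks.

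Adamts1 and Adamts5, both aggrecan-cutting enzymes, are the other neighbouring pair, again with no listed peak of another gene between them. Adamts1 (gene 79252) had 1 Vector peak of 1147 bp, and in the FTO list this length was preceded in number by a peak of 1779 bp. Adamts5 (gene 304135) had Vector peaks of 176 and 1292 bp, and its FTO peaks measured 767, 176, 133 and 1292 bp. Both genes therefore kept every Vector length and had further peaks beside them, and the pair carried 3 Vector peaks and 6 FTO peaks.

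Adamts4 (gene 66015), the other classic aggrecanase, had 1 Vector peak of 961 bp and 2 FTO peaks of 1039 and 2945 bp. The peak of 2945 bp was the longest FTO peak of all 80 genes. Adamts9 and Adamts20, the remaining proteoglycanases, had no peak in either list. Over the 5 proteoglycanases, the peaks summed to 8910 bp for Vector and 16244 bp for FTO, while the mean length of a peak was 810.0 and 812.2 bp. Counting from 200 bp upwards, the 5 genes had 9 Vector peaks and 12 FTO peaks, and Adamts8 and Adamts15 had as many in both lists.

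**Figure D3:**
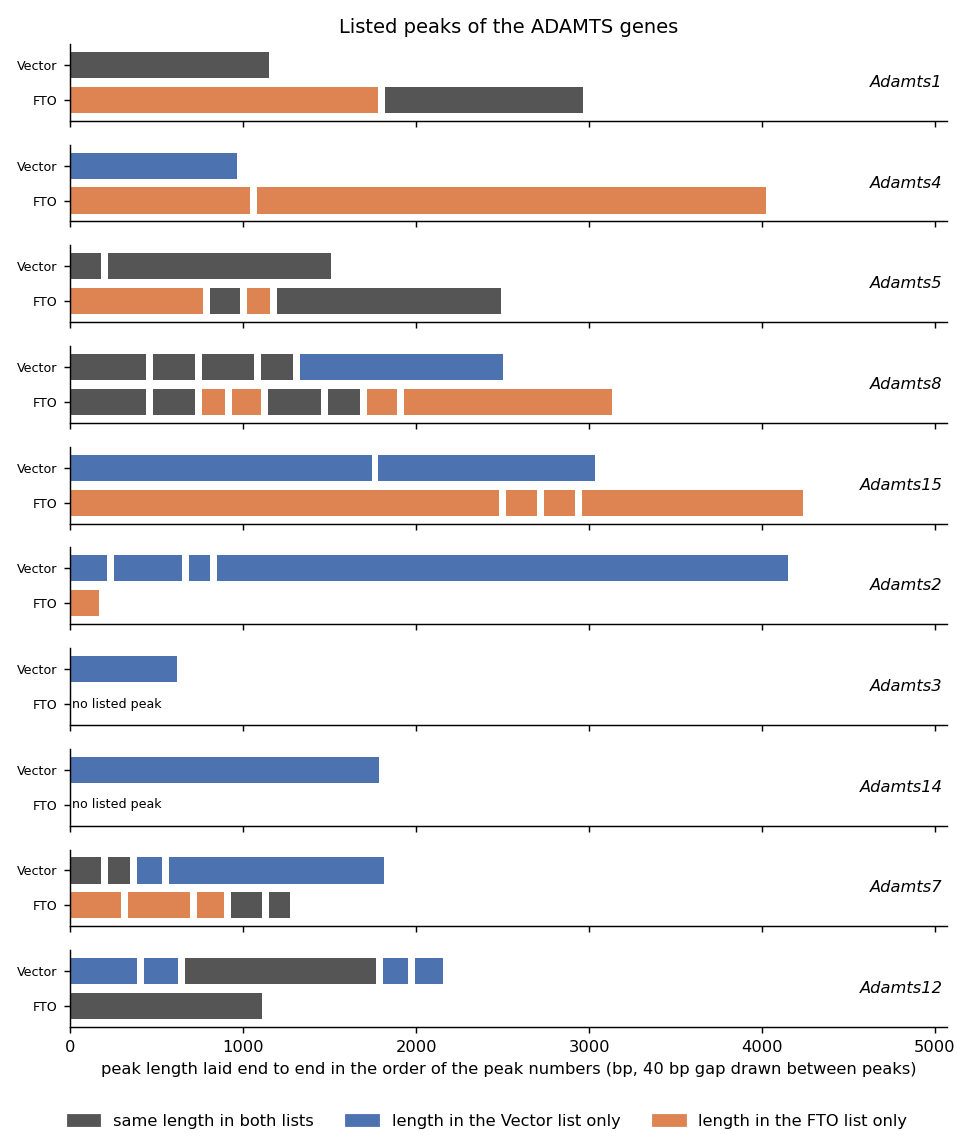
Listed peaks of the 10 ADAMTS genes, drawn as blocks to the scale of their length (horizontal axis, bp) and laid end to end in the order of their numbers, the Vector list above the FTO list for each gene. Grey blocks have the same length in both lists, blue blocks a length of the Vector list only and orange blocks a length of the FTO list only. The upper 5 genes, the proteoglycanases, have more blocks in the FTO row, and Adamts3 and Adamts14 have none there.

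Adamts2 (gene 287899), the main procollagen I N-proteinase, had Vector peaks of 211, 395, 124 and 3298 bp in the order of their numbers, listed under 2 transcripts. Its only FTO peak was 167 bp long and matched none of them. Of the 605 genes with 4 Vector peaks, 89 had a difference of -3 or lower (14.7%). The peak of 3298 bp, the longest of all 80 genes in either list, was the one nearest the 3' end by the RefSeq strand and had no FTO counterpart. Adamts3 (gene 305253), which acts on procollagen II and on the growth factor VEGF-C, had 1 Vector peak of 616 bp. Adamts14 (gene 309837), another procollagen N-proteinase, had 1 Vector peak of 1787 bp. Neither had an FTO peak, and the peaks of the 3 genes summed to 6431 bp for Vector and 167 bp for FTO. With peaks of at least 200 bp the FTO list held 0 peaks of these genes.

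Peak numbers ran up to 59557 in the Vector list, which held 21249 peaks, and up to 52060 in the FTO list, which held 17796. Most numbers thus belong to no listed peak, so a call may exist that the list leaves out. This limit holds for every peak described here as listed in 1 group only. Unc5b and Eif4ebp2 are the nearest genes on either side of Adamts14 with peaks in both lists. Between them the Vector list had 16 peak numbers, 14 of them not listed, and the FTO list had 5, none listed. Neighbours named below for other genes were chosen in the same way, so listed peaks of further genes can lie between them. Around Adamts3, between Ankrd17 and Rufy3, 12 FTO numbers were not listed. Unlisted calls in the FTO group can therefore not be told from absent ones at these genes.

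Adamts7 and Adamts12 cut cartilage oligomeric matrix protein (COMP), and they differed from each other. Adamts12 (gene 294809) had Vector peaks of 385, 197, 1107, 144 and 160 bp, and of these the FTO list kept only the peak of 1107 bp. Of the 387 genes with 5 Vector peaks, 36 had a difference of -4 or lower (9.30%). From 200 bp upwards the difference of Adamts12 was -1. Adamts7 (gene 315879) had 4 Vector peaks of 179, 125, 145 and 1245 bp and 5 FTO peaks of 295, 356, 157, 179 and 125 bp. The peaks of 179 and 125 bp were in both lists, but the long peak at the 3' end, of 1245 bp, was listed in the Vector group alone. The other ADAMTS genes, among them Adamts6, Adamts10 and Adamts13, had no peak in either list.

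The ADAMTS-like genes encode matrix glycoproteins without protease activity, several of which bind fibrillin microfibrils. All 5 had a peak, with 19 Vector peaks and 11 FTO peaks, and they held the widest differences of the set in both directions. Adamtsl2 (gene 311827), known from geleophysic dysplasia and from the regulation of TGF-beta in the matrix, had 7 Vector peaks of 188, 358, 370, 214, 171, 145 and 732 bp and no FTO peak. Of the 206 genes with 7 Vector peaks, 3 had no FTO peak. The unlisted numbers bear on this gene too. Between its neighbours Cacfd1 and Sardh the Vector list had 14 peak numbers, 7 of them the Adamtsl2 peaks, and the FTO list had 4, none listed. What these 4 FTO numbers stand for is not given, so unlisted calls cannot be told from absent ones at this gene either.

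Adamtsl3 (gene 308787) had 8 Vector peaks of 120, 128, 46, 237, 85, 290, 154 and 1072 bp from the 5' to the 3' end. The FTO list kept the last peak alone, with the same 1072 bp. A difference of -7 or lower, as in Adamtsl2 and Adamtsl3, was seen for 0.424% of all genes, but genes with fewer than 7 Vector peaks cannot reach it. Of the 113 genes with 8 Vector peaks, 4 reached it. With peaks of at least 200 bp the difference was -4 for Adamtsl2 and -2 for Adamtsl3.

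Adamtsl1 (gene 362539) went the other way. Its 2 Vector peaks of 205 and 148 bp were the fourth and the fifth of its 7 FTO peaks, which measured 198, 128, 139, 205, 148, 85 and 130 bp. A difference of at least 5 in this direction was seen for 0.206% of all genes. The added peaks were all shorter than 200 bp, and from 200 bp upwards Adamtsl1 had 1 peak in each list. Adamtsl4 (gene 310670), a fibrillin-binding protein known from displaced eye lenses, had Vector peaks of 598 and 316 bp, and the peak of 598 bp was its only FTO peak. Adamtsl5 (gene 314626) had no Vector peak and FTO peaks of 91 and 307 bp. Between its neighbours Mex3d and Reep6 the Vector list had 1 unlisted number.

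**Figure D4:**
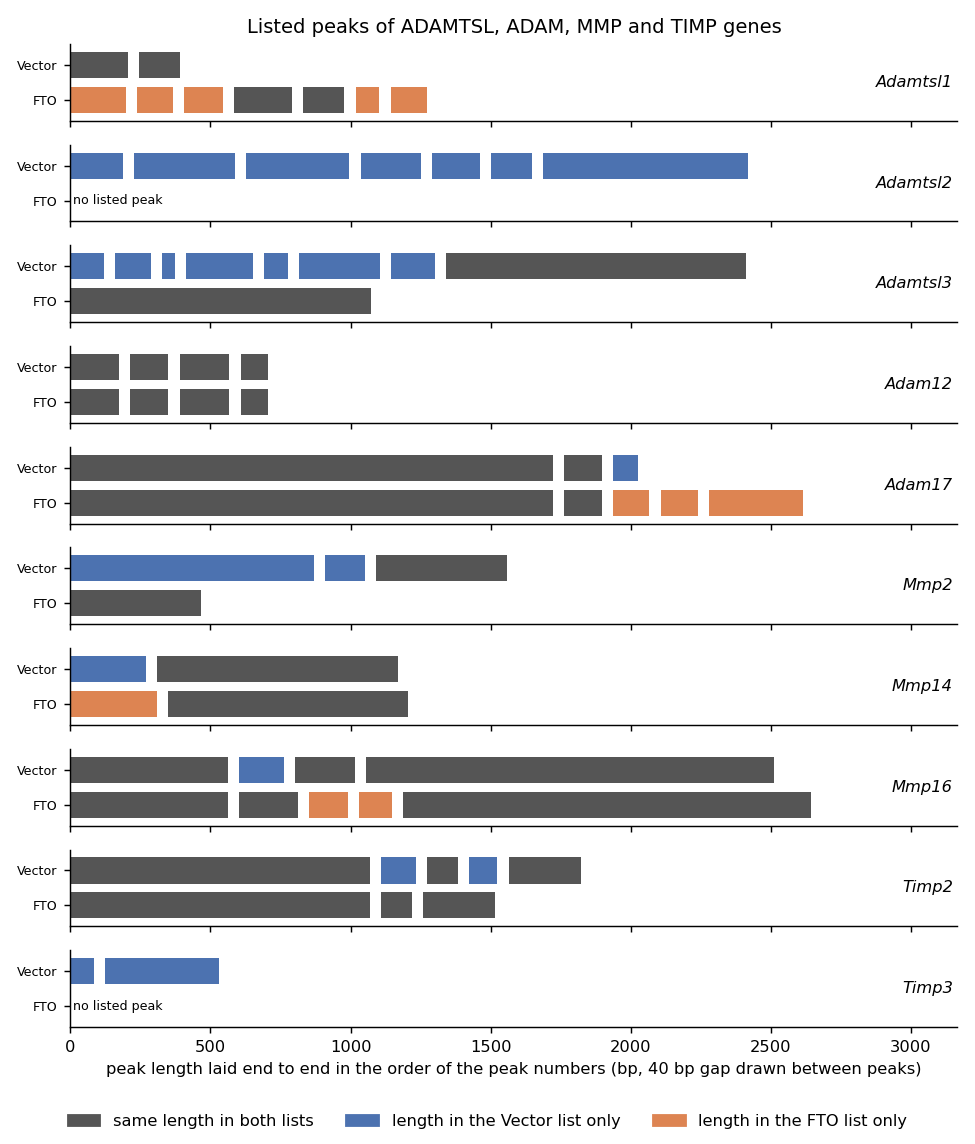
Listed peaks of 10 further genes, drawn to the scale of their length (horizontal axis, bp) in the order of their numbers, the Vector list above the FTO list. Grey blocks have the same length in both lists, blue and orange blocks a length of the Vector or the FTO list only. Adam12 has the same 4 blocks in both rows, while Adamtsl2 and Timp3 have none in the FTO row.

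The ADAM genes were the least covered subfamily, with a peak on 6 of 29 genes, and none of them had fewer peaks in the FTO list (41.4% of all genes). Together they had 11 Vector peaks and 15 FTO peaks. Many of the 29 are genes of the testis. With peaks of at least 200 bp, 1 Vector peak and 6 FTO peaks remained.

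Adam17 (gene 57027), the sheddase of TNF and of EGF receptor ligands, had Vector peaks of 1721, 135 and 89 bp in the order of their numbers. Its 5 FTO peaks measured 1721, 135, 131, 133 and 336 bp. The gene is on the minus strand, so the shared long peak is the one nearest the 3' end, and the differing peaks lie towards the 5' end. Adam10 (gene 29650), the sheddase of Notch, had 1 FTO peak of 262 bp and no Vector peak. Between its neighbours Mindy2 and Myzap 11 Vector numbers were not listed, so a call left out of the list is possible there.

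Adam12 (gene 679837), a sheddase known from activated fibroblasts, had the same 4 lengths, 174, 136, 178 and 98 bp, in the same order in both lists. It was the only one of the 32 genes whose set of lengths was identical in both. Adam19 (gene 303068), a sheddase of neuregulin, had 3 peaks in each list, with lengths of 188, 77 and 193 bp in the Vector list and of 188, 66 and 225 bp in the FTO list. Adam23 (gene 301460), which lacks a complete catalytic site, had 1 peak in each list, of 64 and 359 bp. Adam1b (gene 100360238), a gene of sperm in textbooks, had 1 FTO peak of 1095 bp, and how reads shared with its close relative Adam1a were counted is not given in the sources used here. Adam8, Adam9, Adam15 and Adam33 had no peak in either list.

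The MMP genes had 16 Vector peaks and 13 FTO peaks on 9 of 23 genes. Fewer FTO peaks were listed for 4 genes, as many for 2 and more for 3. The membrane-type MMPs, which act at the cell surface, had 8 Vector peaks and 10 FTO peaks on 4 genes, and none of the 4 had fewer. Of the 5 secreted MMPs with a peak, Mmp2, Mmp12, Mmp19 and Mmp28 had fewer and Mmp3 had more. Over all genes 41.4% had fewer, and the difference between these kinds of MMP was not tested.

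Mmp14 (gene 81707), which activates pro-MMP2, had 2 peaks in each list, of 271 and 857 bp in the Vector group and of 308 and 857 bp in the FTO group. Mmp16 (gene 65205) had Vector peaks of 561, 162, 212 and 1457 bp and FTO peaks of 561, 212, 139, 116 and 1457 bp. Mmp17 (gene 288626) kept its peak of 1912 bp and had a further FTO peak of 284 bp. Mmp24 (gene 83513) had 1 peak in each list, of 680 and 826 bp. The membrane-type genes thus shared their longest peak between the lists, except Mmp24.

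Mmp2 (gene 81686), a gelatinase secreted by fibroblasts, had Vector peaks of 870, 142 and 466 bp, and the peak of 466 bp was its only FTO peak. Of the 964 genes with 3 Vector peaks, 258 had a difference of -2 or lower (26.8%). Mmp19 (gene 304608) had Vector peaks of 246 and 126 bp, and 246 bp was its only FTO length. Mmp28 (gene 303384) had Vector peaks of 246 and 111 bp and no FTO peak. In the MMP cluster near Birc2, 2 genes had 1 peak each and in opposite groups, Mmp12 (gene 117033), the macrophage elastase, with a Vector peak of 134 bp, and Mmp3 (gene 171045), stromelysin 1, with an FTO peak of 48 bp. The interval around these genes, between Msantd4 and Birc2, had 53 unlisted Vector numbers and 50 unlisted FTO numbers. From 200 bp upwards, Mmp3, Mmp12, Mmp16 and Mmp19 had as many peaks in both lists. Mmp9, Mmp11, Mmp13 and the other collagenases had no peak in either list.

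Of the 4 inhibitors, Timp2 and Timp3 had a peak, and both had fewer in the FTO list (41.4% of all genes). They had 7 Vector peaks and 3 FTO peaks in all. Timp2 (gene 29543), an inhibitor that also takes part in the activation of pro-MMP2 with Mmp14, had Vector peaks of 1069, 125, 109, 101 and 257 bp in the order of their numbers. The FTO list kept 1069, 109 and 257 bp, so the peaks of 125 and 101 bp between them were the ones not listed. Of the 387 genes with 5 Vector peaks, 147 had a difference of -2 or lower (38.0%). With peaks of at least 200 bp Timp2 had 2 peaks in each list. Timp3 (gene 25358), which is bound to the matrix and inhibits Adam17 and the aggrecanases, had Vector peaks of 83 and 409 bp and no FTO peak. Between Hnrnpm and Rtcb, its nearest neighbours with peaks in both lists, 85 FTO numbers were not listed. Timp1 and Timp4 had no peak in either list.

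**Figure D5:**
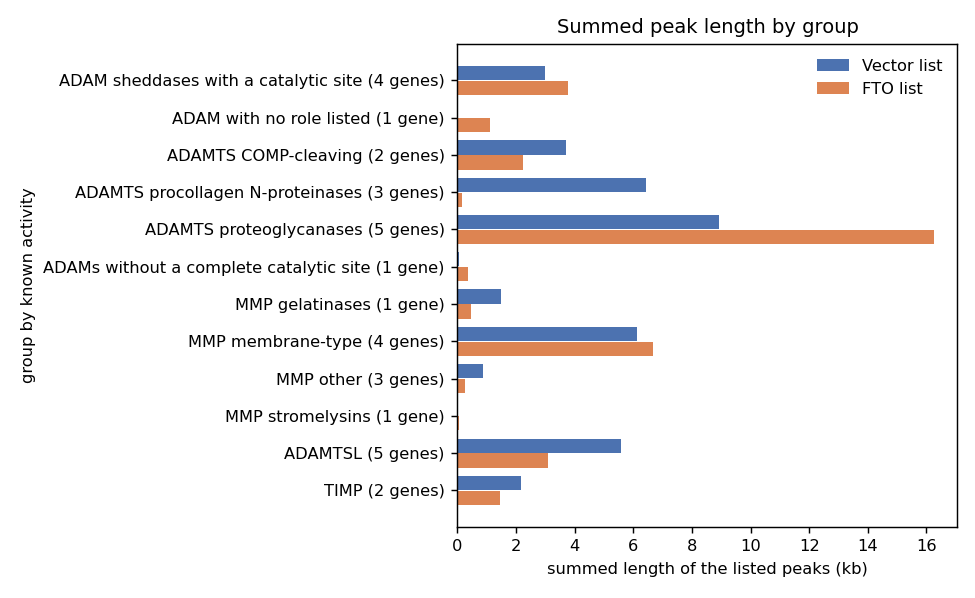
Summed length of the listed peaks (horizontal axis, kb) by known activity of the genes, with the number of genes with a peak in brackets, for the Vector list (blue) and the FTO list (orange). The sums are 8910 and 16244 bp for the proteoglycanases and 6431 and 167 bp for the procollagen N-proteinases, each from 1 list with no replicate.

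Over all 80 genes the peaks summed to 38264 bp for Vector and 35835 bp for FTO, a ratio of 0.937, beside 0.932 for all genes. The ratio was 1.72 for the ADAM genes, 0.979 for ADAMTS, 0.556 for ADAMTSL, 0.879 for MMP and 0.667 for TIMP. A Vector peak of these genes measured 484 bp on average and an FTO peak 519 bp, and over all genes 495 and 550.3 bp. The longest peak of a gene was often the one nearest the 3' end. Among the genes with 3 or more Vector peaks and a known strand, this held for 7 of 9 members, and for 50.5% of 2284 genes in all. In the FTO list it held for 3 of 6 members and for 51.4% of 1840 genes.

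Of 63 further genes of the pathway, listed by known role, 39 had a peak, with 195 Vector peaks and 159 FTO peaks. The FTO number was lower for 19 of these genes, equal for 10 and higher for 10 (41.4%, 37.4% and 21.2% of all genes), and the median difference was 0, as over all genes. Partners of Adam10 and Adam17 had 11 Vector peaks and 16 FTO peaks, and 4 of the 6 with a peak had more (21.2% of all genes). Tspan5, a tetraspanin that carries Adam10 to the cell surface, had 2 Vector peaks and 5 FTO peaks. Among the genes listed for shedding, 5 of the 12 with a peak had fewer and 2 had more. Egfr, the EGF receptor whose ligands Adam17 sheds, was counted among them and had 0 Vector peaks and 3 FTO peaks. App, the amyloid precursor protein, had 12 and 7.

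The proprotein convertases remove the propeptide of many metalloproteinases. Pcsk6 had 11 Vector peaks and 3 FTO peaks, and the other 3 convertases differed by at most 2 peaks. Among 10 matrix substrates with a peak, 8 had fewer FTO peaks (41.4% of all genes), 1 as many and 1 more, with 104 Vector peaks and 78 FTO peaks. Several of them had many Vector peaks, and over all genes with 5 Vector peaks, for instance, the median difference was -1. Acan, the aggrecan core protein that the proteoglycanases cut, had 11 Vector peaks and no FTO peak, and Vcan, versican, had 5 and 2. Col5a1 had 34 Vector peaks and 29 FTO peaks. Other inhibitors were little covered, with Reck, a membrane-bound MMP inhibitor, at 2 and 1 and the clearance receptor Lrp1 at 3 and 2. The plasminogen system had 10 Vector peaks and 8 FTO peaks, and the astacin proteases Bmp1 and Tll1 had 5 and 7 together.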

How the data were processed

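m6A-IP and input libraries of neonatal rat CFs gave 1 Vector list and 1 FTO list of peaks. The values deposited by the authors are peak lengths in bp, not normalized, each with a peak name, a transcript and an NCBI gene ID. Per the labels, the submitters' processing notes name cutadapt 1.9.3, HISAT2 2.0.4 and the rn6 build. The names of the peaks begin with MACS, and the caller's settings, threshold and annotation are not given in the sources used here. Depth and transcript level can change the number and length of peaks, and neither was corrected for.

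Symbols came from the RefSeq table of GRCr8. It lacked 234 of 7723 Vector gene IDs and 225 of 7145 FTO gene IDs, and 248 and 213 peaks carried no ID, so none of these could be assigned. Strand came from RefSeq promoters of GRCr8, which gave none for Adam23, Adamts5, Adamts8, Adamts15, Mmp2, Mmp14, Mmp16, Mmp17 and Mmp19. Peaks were counted per gene and paired by gene and equal length. The pairing was run on simulated lists, but each added peak there had a length of its own. How often different peaks share a length by coincidence was therefore not tested. Shares have 95% Wilson intervals, and those for peaks do not allow for the peaks of a gene going together.

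The members, activity groups, pathway and marker lists were chosen with earlier results of these data known. Named were members with 3 or more peaks in either list, a difference of 2 or more or peaks in 1 list only, all Timp genes, and pathway genes differing by 3 or more. The other genes named were chosen after their values were seen. Alternatives were minimum lengths of 100 and 200 bp, equal lengths counted once, the transcript with the most peaks, scaling by the list sizes and other pairing rules. Protein sequences planned for display were not used here. Python 3.11.15, numpy 2.4.6, pandas 2.3.3, scipy 1.17.1 and matplotlib 3.10.9 were used.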

Additional observations from a re-analysis of the deposited data

How the results depend on the processing

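Of 271 values under the alternatives, 245 stayed within the limit for their kind. The limit was 1.5 times for a count or length and the Wilson interval for a share. A difference between the lists was checked for its direction alone, whatever its size. Adamtsl3, for instance, went from -7 to -2 with peaks of at least 200 bp and was counted as unchanged. Keeping peaks of at least 200 bp moved the most. All members then had 42 Vector peaks and 37 FTO peaks, with median lengths of 579.5 and 598 bp. The numbers left were 1 Vector peak and 6 FTO peaks for ADAM, 17 and 15 for ADAMTS, 10 and 4 for ADAMTSL and 3 Vector peaks for TIMP. The ADAMTS difference reversed, from more FTO peaks to -2. The proteoglycanases had 12 FTO peaks, beside 9 Vector peaks, and the procollagen N-proteinases had 0 FTO peaks. With peaks of at least 100 bp, ADAM had 7 Vector peaks. Scaling by the list sizes reversed the difference of all members to 3.39. When peaks of a gene were paired 1 to 1 whatever their length, 43.0% of the Vector peaks had no partner. No value over all genes was taken under this rule, and the 42.7% of all Vector peaks given above belongs to pairing by equal length. Of 135 values for the 27 genes with a difference, 126 kept their direction, 9 became 0 and 0 reversed. Many of these values could hardly change. Counting equal lengths once altered none of them, and the transcript with the most peaks altered Adamts2 alone, from -3 to -1. Scaling cannot turn a gene with more FTO peaks or with peaks in 1 list only. All 9 that became 0 did so under a minimum length. Requiring the order of the peak numbers in the pairing, a rule chosen after seeing the data, left the unpaired share at 60.8%. Genes with a single pair could not change under it. No paired analysis was possible because 1 IP and 1 input library stand for each group, and for the same reason no replicate could be left out. The lists hold no depth, so differences in depth between the groups were not separated from differences in peaks.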
